A study of Canis lupus familiaris with 4 samples.

Results

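Collagen VI genes were examined in cultured adipose mesenchymal stromal cells (MSCs) of 4 dogs. The genes were chosen by name, as every row of the expression table whose symbol begins with COL6A, because COL6A3 had been seen to vary widely between these cultures while COL6A1 was steady. The choice named 5 chains. Of these, COL6A1, COL6A3, COL6A5 and COL6A6 were in the table of 30951 genes, each as a single row, and COL6A2 was not analysed here. All 4 libraries served in the choice, so the values of the chains are given as a description, without a test. MSCs are plastic-adherent stromal cells that deposit matrix. Each library was total RNA of 1 primary line from 1 dog, grown in DMEM with 10% fetal bovine serum and harvested untreated after 48 h in 24-well plates. There was a single group, with no contrast of treatments, and the sources used here do not give the age, breed or passage of the lines. The study concerned the antimicrobial lyosecretome, the freeze-dried secreted fraction of such cells.

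Collagen VI is a secreted collagen of the matrix close to cells. Its alpha 1, alpha 2 and alpha 3 chains, encoded by COL6A1, COL6A2 and COL6A3, join into a triple-helical monomer that assembles inside the cell into dimers and tetramers and outside it into beaded microfilaments. Mutations in these genes cause congenital muscular dystrophy and milder myopathy in people. The alpha 3 chain carries a C-terminal domain that is cleaved off after secretion, and the fragment, endotrophin, is known from adipose tissue, where collagen VI is abundant. COL6A5 and COL6A6 encode chains related to alpha 3 that can take its place and have a narrower tissue distribution.

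The libraries held between 7474011 reads (dog 4) and 22411268 reads (dog 1) assigned to genes, recovered from the deposited log2 values. A level is the deposited value minus the median detected gene of the same library, in log2 units, and a gene was called detected with reads in at least 2 of the 4 libraries. Levels were not corrected for transcript length, so each is best compared with the same gene in another dog. Normalized reads are reads divided by the size factor of the library, 1.39, 1.08, 1.05 and 0.461 for dogs 1 to 4.

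COL6A1 was abundant and nearly equal in all dogs. It had 85473, 70529, 75490 and 67684 normalized reads in dogs 1 to 4, from 118989, 76434, 79078 and 31210 reads. Dog 1 was highest and dog 4 lowest, and the fold between them was 1.26 (exact binomial 95% interval 1.25 to 1.28, counting error only). COL6A1 reads made up 0.531%, 0.470%, 0.520% and 0.418% of the libraries of dogs 1 to 4. The level of COL6A1 (ENSCAFG00000011911) was 8.86 ± 0.15 above the median detected gene (mean ± SD, n = 4 dogs, as for every ± here). Without dog 1 its SD was 0.07.

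COL6A3, whose product completes the monomer, varied widely between the same cultures. It had 2633, 1520, 18528 and 217 normalized reads in dogs 1 to 4, from 3666, 1647, 19409 and 100 reads. Dog 3 stood far above the rest, dogs 1 and 2 lay within 1 log2 unit of each other, and dog 4 stood far below them. The fold between dogs 3 and 4 was 85.4, with a counting interval of 70.2 to 105. Even dog 4, the shallowest library, held enough reads to place the value: 100 reads carry an exact Poisson 95% interval of 81.4 to 122, or 176 to 264 normalized reads, which ends below the lower bound of 1447 in dog 2. PCR reads without molecular identifiers are not independent molecules, so these intervals cover counting error only.

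On the log2 scale COL6A3 (ENSCAFG00000012226) stood at 4.06, 3.26, 6.85 and 0.58 above the median detected gene in dogs 1 to 4, a mean of 3.69 ± 2.58. The range was 6.27 log2 units, against 0.34 for COL6A1. Both end libraries carry the spread: the SD was 1.82 without dog 3 and 1.88 without dog 4, and the mean level was 2.63 and 4.72. When all libraries were thinned at random to the 7474011 reads of dog 4, the SD of COL6A3 was 2.53 and that of COL6A1 0.15. In such cultures a smaller share of cells that express a gene and less RNA per cell cannot be told apart.

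**Figure D1:**
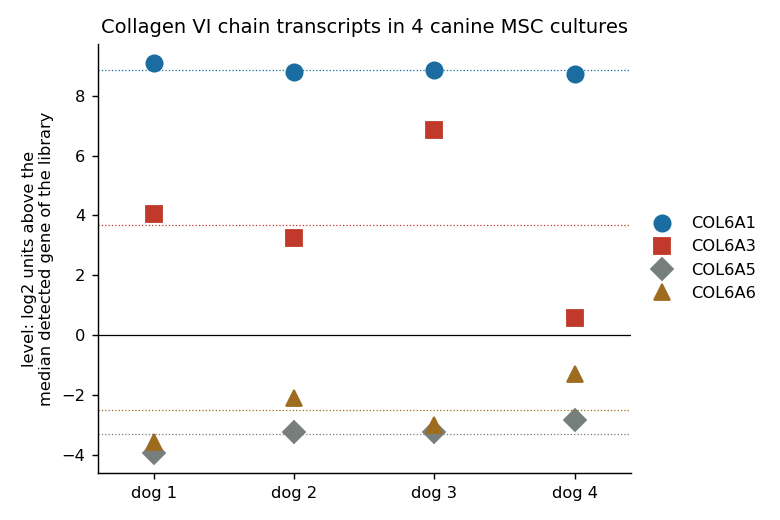
Level of each measured collagen VI chain in dogs 1 to 4, in log2 units above the median detected gene of the same library (solid line at 0); points are single libraries and dotted lines the mean over the 4 dogs. COL6A1 stays between 8.74 and 9.07, COL6A3 spans 0.58 to 6.85, and COL6A5 and COL6A6 lie below 0 in every dog.

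Since the monomer holds the alpha 1 and alpha 3 chains side by side, their transcripts were set against each other within each culture. For every 100 reads of COL6A1 there were 3.08 reads of COL6A3 in dog 1, 2.15 in dog 2, 24.5 in dog 3 and 0.320 in dog 4. Their exact binomial 95% intervals were 2.98 to 3.18, 2.05 to 2.26, 24.2 to 24.9 and 0.261 to 0.390, and none overlapped another. The ratio itself depends on transcript length and is no chain stoichiometry, but its change between dogs does not depend on length, and it was 76.6-fold between dogs 3 and 4. As log2 values, COL6A3 minus COL6A1 was -5.01, -5.52, -2.03 and -8.16 in dogs 1 to 4, a mean of -5.18 ± 2.51. This spread is nearly that of COL6A3 alone, because COL6A1 changed so little. Without dog 3 the mean difference was -6.23 and without dog 4 it was -4.18.

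COL6A5 and COL6A6, the chains that can replace alpha 3, were at a few reads only. COL6A6 (ENSCAFG00000006035) had 1, 22, 5 and 21 reads in dogs 1 to 4, which are 0.718, 20.3, 4.77 and 45.5 normalized reads. Dog 4 was highest and dog 1 lowest, with a ratio of 63.4 whose counting interval runs from 10.2 to 2622. The counting intervals of dogs 2 and 4, 12.7 to 30.7 and 28.2 to 69.6 normalized reads, overlapped. Its level was -2.49 ± 1.00.

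COL6A5 (ENSCAFG00000006046) had 0, 3, 3 and 3 reads, a level of -3.30 ± 0.47. A count of 0 in dog 1 allows up to 0.134 CPM (counts per 1000000 assigned reads, set at 3 reads), and the other 3 libraries lay at such a limit, so no order between dogs can be read. Among reads of the 4 measured chains, uncorrected for length, COL6A1 took 97.0%, 97.9%, 80.3% and 99.6% in dogs 1 to 4, and COL6A3 took 2.99%, 2.11%, 19.7% and 0.319%. The 2 low chains together stayed under 0.1% in every dog, and they lie side by side in the dog RefSeq annotation and are related in sequence, so single reads may be shared between them.

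The spread of COL6A3 was large also against the transcriptome. Its SD of 2.58 was the second largest among the 9454 genes with a mean of at least 100 normalized reads, after 2.82 of the sorting receptor SORCS1 and closely followed by the keratin KRT18 at 2.58. The median SD of these genes was 0.27, and 95% of them lay below 0.79. Of the 968 other genes within 0.5 log2 units of the mean level of COL6A3, none had a larger SD, and the next was 1.98. COL6A1, with 0.15, had a smaller SD than 9 of the 10 other genes within 0.5 log2 units of its level.

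Among the 18 other collagen genes with a mean of at least 100 normalized reads the SD ranged from 0.16 to 1.62 with a median of 0.57. None had a larger SD than COL6A3 and none a smaller one than COL6A1, so the 2 chains of one protein bracketed the collagen genes measured. The widest other collagen was COL5A3, at 1.62, followed by COL12A1, at 1.33. COL6A5 and COL6A6 had SDs of 0.47 and 1.00 at levels where the transformation flattens differences, with medians of 0.49 and 0.52 among genes of like level. These ranks describe values that chose the genes.

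**Figure D2:**
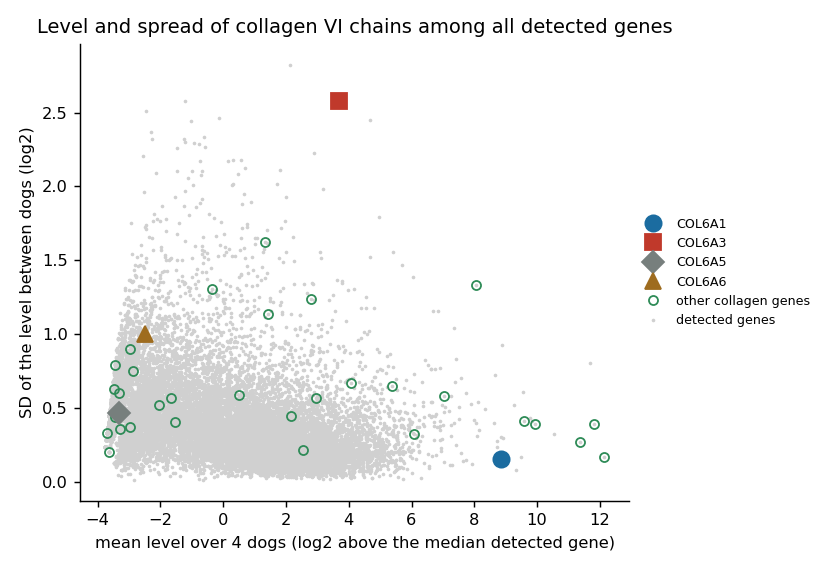
Mean level over the 4 dogs (x axis, log2 above the median detected gene) and SD between dogs (y axis, log2) for the collagen VI chains, the other collagen genes and all 17200 detected genes, each point being 1 gene. COL6A3 lies at 3.69 with an SD of 2.58 above all genes of like level, and COL6A1 at 8.86 with an SD of 0.15 along the lower edge.

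The genes whose values over the dogs were most like those of COL6A3 were found by the root mean square difference of centred levels over the 4 libraries, among other genes with a symbol and a mean of at least 100 normalized reads. The nearest was RAB15, a small GTPase of endosomal recycling, at a distance of 0.57, with 41.7, 50.8, 728 and 2.17 normalized reads in dogs 1 to 4. Like COL6A3, it was highest in dog 3 and lowest in dog 4, where it had 1 read. WT1, a zinc finger transcription factor, followed at 0.72 with 106, 84.0 and 303 normalized reads in dogs 1 to 3 and 0 in dog 4.

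Matrix and adhesion genes were among the next. EGFLAM, which encodes the matrix protein pikachurin, had 61.1, 96.9, 461 and 4.34 normalized reads in dogs 1 to 4 (distance 0.75). ABI3BP, a matrix protein gene, had 99.8, 75.7, 1621 and 36.9 (distance 0.89). The adhesion receptor ADGRG6 had 464, 219, 1558 and 106 (distance 0.95). In each of these dog 3 was highest and dog 4 lowest, and dogs 1 and 2 lay between.

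Further genes among the 10 nearest were LSP1, an actin-binding protein of leukocytes (distance 0.96), the transcription factor DMRT2 (0.98), the Rac activator TIAM1 (1.00) and TGFBR3 (1.22). TGFBR3 encodes betaglycan, the co-receptor that presents TGF-beta 2 to its receptors, and had 1084, 1368, 3280 and 386 normalized reads in dogs 1 to 4. DMRT2 and WT1 had 0 reads in dog 4, where 0 reads allow up to 6.51 normalized reads. Of the 8751 other named genes, 7 lay within a distance of 1, and 8 lay as near to the sign-reversed profile of COL6A3. The list rests on the end libraries: 1 of the 10 genes was among the 10 nearest without dog 3, 4 without dog 4, and 8 without dog 1 or dog 2. It is a description of 4 libraries.

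Genes nearest to the reversed profile were high in dog 4 and low in dog 3. MYLK, the kinase of smooth muscle and non-muscle myosin light chains, had 4194, 2657, 632 and 38320 normalized reads in dogs 1 to 4 (distance 0.62). PGM5, an adhesion protein of muscle cells related to phosphoglucomutase, had 190, 96.0, 41.0 and 1648 (0.95). The activin subunit INHBB had 119, 82.1, 22.0 and 614 (0.95), and the lactate and pyruvate transporter SLC16A7 (0.94) and the ubiquitin ligase RNF144B (0.94) completed the 5.

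The summed reads of contractile markers were highest in dog 4. MYLK, found above by its reversed profile, is one of these markers, so the sum is not separate from that list. The summed normalized reads of the 14 measured genes of the smooth muscle and pericyte list were 96275, 69889, 54052 and 194315 in dogs 1 to 4, so the culture with the fewest COL6A3 reads had the most, and the one with the most COL6A3 reads had the fewest. ACTA2, TAGLN and MYLK made up 149873 of the sum in dog 4. Of 13 detected genes of the list, 9 were highest in dog 4, CSPG4 and MYOCD in dog 2 and PDGFRB in dog 3. KCNJ8 was about equally high in dogs 1 and 3, at 25.1 and 25.8 normalized reads. Dog 4 was often highest elsewhere too. It was so for 150 (57.3%) of the 262 genes with a mean of at least 100 normalized reads and an SD of at least 1. The genes of the list were not held to these limits, and MYH11 had an SD of 0.18 and TAGLN of 0.68. The 2 shares are thus of unlike sets, and the share over all detected genes was not counted. Of the 13 genes, 10 passed a level test against the median detected gene (limma, distance of 1 log2 unit) as above it and 2 as below, against 33.3% and 35.8% of all 17200 detected genes; without dog 2 the count above was 9. The pericyte marker RGS5 had 0 reads in all dogs. The actin ACTA2 stood at 7.34 ± 1.04, TAGLN at 7.38 ± 0.68 and CNN1 at 3.51 ± 1.27. The part of contractile cells in the values of COL6A3 was not tested. In the strict order of dogs, the receptor PDGFRB alone shared that of COL6A3 and NOTCH3 alone had its reverse. PDGFRB is 7.69% of the 13 genes, against 6.73% of genes with a mean of at least 100 normalized reads.

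**Figure D3:**
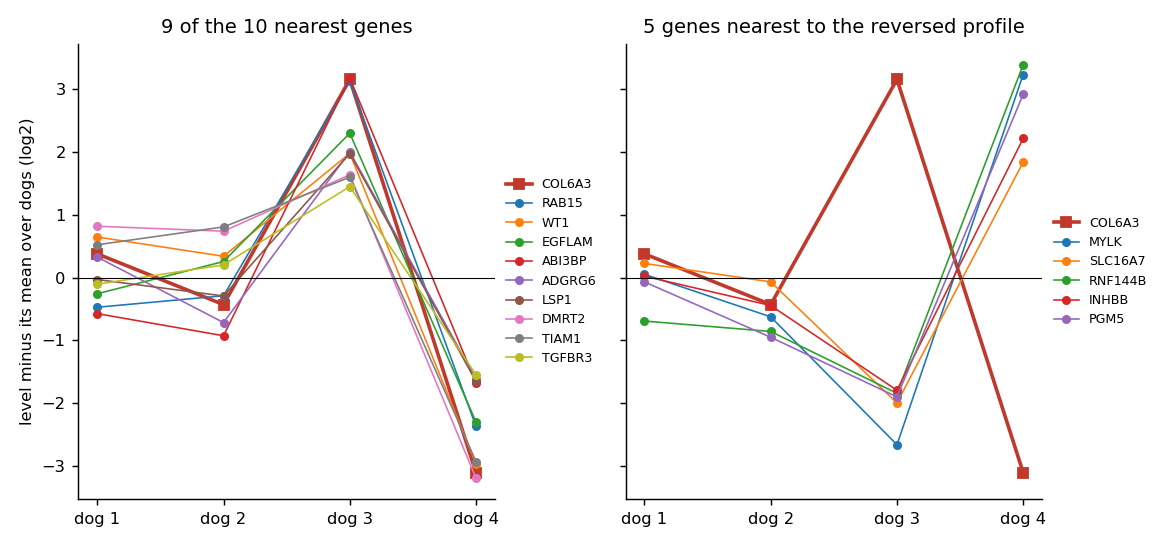
Centred levels (log2 level minus its mean over the 4 dogs) of COL6A3 in both panels, with 9 of the 10 genes nearest to its profile on the left and the 5 genes nearest to the reversed profile on the right; lines only join the values of 1 gene across dogs 1 to 4. On the left all genes are highest in dog 3 and lowest in dog 4, and on the right highest in dog 4 and lowest in dog 3.

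Large differences between these dogs often involved dog 4. Among the 262 genes with a mean of at least 100 normalized reads and an SD of at least 1, dog 4 was highest for 150 and lowest for 68, together 83.2%, and dog 3 was highest for 45 and lowest for 102. The order of COL6A3, dog 3 over 1 over 2 over 4, was found in 14 of the 262 (5.34%) and in 6.73% of all 9454 genes with that mean. Both counts include COL6A3 itself. The reversed order was found in 24 of the 262 (9.16%) and in 5.83% of all genes with that mean. Dog 4 was also the shallowest library, and its part in these counts was not tested beyond the thinned values above.

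Genes beside COL6A3 on the chromosome were silent or at a few reads, while those beside the other chains were mixed. The neighbours come from RefSeq's assembly of a German Shepherd, which is not the build of the deposited table. Of the genes beside COL6A3, the scavenging chemokine receptor ACKR3 had 40, 0, 44 and 4 reads in dogs 1 to 4. It was below the median detected gene, at -2.45 ± 1.14. IQCA1, MLPH and PRLH had 0 reads in all dogs, RAB17 had 5 reads in dog 1 alone, and COPS8, the nearest on one side, was not analysed here. Beside COL6A1, the folate carrier SLC19A1 was above at 2.14 ± 0.22 and PCBP3 was neither above nor below, at -0.18 ± 0.42. FTCD had 1 read in all and SPATC1L had 0. COL6A2 is the nearest gene on the other side of COL6A1. Beside COL6A5 and COL6A6, which were near the floor, SH3BP5 (2.87 ± 0.51), CAPN7 (2.24 ± 0.12), PIK3R4 (2.32 ± 0.20) and ATP2C1 (3.21 ± 0.26) were all above.

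Genes of the wider collagen VI system were set against the median detected gene, with a test that asks for a distance of more than 1 log2 unit (limma, Benjamini-Hochberg adjusted p of 0.05). Of all 17200 detected genes, 33.3% were above and 35.8% below by this test, and the median SD between dogs was 0.36. Labels and library names give the libraries as separate primary lines of separate dogs, so the test uses the spread between dogs, which holds that between cultures and libraries too.

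Cell-surface receptors of collagen VI were present. Of 12 receptor genes, 7 were above the median detected gene, 1 was below and 4 were neither, and their median level was 3.35. The integrin subunit ITGB1, shared by the collagen-binding integrins, stood at 6.99 ± 0.52. The collagen receptor kinase DDR2 stood at 5.31 ± 0.04, the alpha subunit ITGA1 at 4.74 ± 0.68 and the proteoglycan CSPG4 (NG2), which binds collagen VI, at 4.50 ± 0.39. ITGA11, which pairs with ITGB1, was above at 3.70 ± 0.90 and lowest in dog 3, at 2.45. ANTXR1 and ANTXR2, anthrax toxin receptors that bind collagen VI, were above at 3.69 ± 0.22 and 3.01 ± 0.35. DDR1, with -0.87, 0.51, 0.03 and 1.22 in dogs 1 to 4, did not pass. The gene below was ITGA10 (-1.57 ± 0.46), named after its value was seen, and it lost its call without dog 1 (-1.58), 2 (-1.39) or 4 (-1.55).

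Matrix proteins that bind collagen VI or lie beside it were mostly abundant. Of 24 measured genes 16 were above, 3 below and 5 neither, with a median level of 5.61. COL3A1 (12.13 ± 0.16), COL1A1 (11.80 ± 0.39), fibronectin (FN1, 9.76 ± 0.43) and perlecan (HSPG2, 8.92 ± 0.30) had the highest levels. The small proteoglycans decorin (DCN, 8.00 ± 0.42) and biglycan (BGN, 7.50 ± 0.51), which bridge collagen VI to other fibres, were above, whereas the matrilins MATN3 (-1.97 ± 0.38) and MATN4 (-3.11 ± 0.68), adaptors of collagen VI in cartilage, were below. FMOD was the other gene below (-1.72 ± 0.52, but -1.51 and no call without dog 1). MATN2 was neither, at 1.16 ± 0.38.

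Within this list the widest spreads belonged to VWA1, COL12A1 and VWF. VWA1, a matrix protein that binds collagen VI and perlecan, stood at -1.98, -1.78, -1.29 and 1.03 in dogs 1 to 4 and did not pass, but was below without dog 4 (-1.68). COL12A1, which lies on the surface of fibrils, stood at 7.76, 7.27, 7.14 and 10.00. VWF, the blood clotting factor that binds collagen VI beneath endothelium, stood at 0.89, -1.08, 0.48 and -1.84 and did not pass. VWA1 and COL12A1 were highest in dog 4 and VWF lowest there. Of the 24 genes, TNXB and FBN1 (8.33%) had the dog order of COL6A3, near the 6.73% of genes with a mean of at least 100 normalized reads, and over much smaller ranges. FBN1 lay between 8.41 and 8.97 and TNXB between -0.73 and 1.55. COL4A2 had the reversed order. Over the 82 detected genes of the receptor, matrix, synthesis, protease and signalling lists, the order of COL6A3 was found in these 2 genes and its reverse in 5, which were ITGA2, ANTXR2, COL4A2, PCSK5 and TGFBR2 (6.10%, against 5.83% of genes with a mean of at least 100 normalized reads).

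The machinery that modifies, folds and exports collagen chains was abundant. Of 21 measured genes 19 were above, 1 below and 1 neither, their median level was 4.97 and their median SD 0.25, near the 0.27 of genes with a mean of at least 100 normalized reads. The collagen chaperone SERPINH1 stood at 7.93 ± 0.12, the lysyl hydroxylase PLOD2 at 6.90 ± 0.38, the prolyl hydroxylase subunit P4HB at 6.57 ± 0.10 and the chaperone HSPA5 at 6.22 ± 0.24. The widest were P4HA3, a catalytic subunit of prolyl hydroxylase (2.07 ± 0.87), the prolyl hydroxylase P3H2 (-1.45 ± 0.77) and PLOD1 (4.53 ± 0.54). P3H2 did not pass but was below without dog 3 (-1.75), and the gene below was COLGALT2, a collagen galactosyltransferase, with 2 reads in all. No gene of this list had the dog order of COL6A3 or its reverse.

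Proteases of collagen VI and their inhibitors were above in 8 of 11 cases, with 1 below and 2 neither and a median level of 3.08. MMP2, a gelatinase, stood at 7.40 ± 0.83, the membrane protease MMP14 at 6.90 ± 0.35, BMP1 at 5.65 ± 0.43 and FURIN at 4.53 ± 0.20. BMP1 and furin-like convertases are known to cut the C-terminal part of the alpha 3 chain. BMP1 stood at 5.69, 5.60, 5.13 and 6.19 in dogs 1 to 4, so it was lowest in dog 3, where COL6A3 was highest. PCSK6, a related convertase, was neither at 1.58 ± 1.22, and above without dog 2 (1.95). The inhibitor TIMP3 had a level of 2.45 ± 1.03, and MMP9 was below.

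All 14 genes of TGF-beta signalling, which raises matrix gene expression in fibroblasts, were above the median detected gene, with a median level of 3.03. The signal transducer SMAD3 lost its call without dog 2 (1.40). Against the median of genes with reads in all 4 dogs, SMAD3 (0.66) and TGFBI (1.30) were neither above nor below. The latency proteins LTBP2 and LTBP1 stood at 7.51 ± 0.43 and 6.51 ± 0.79, the target CCN2 at 4.56 ± 1.17 and the receptor TGFBR2 at 3.77 ± 0.09. The widest were TGFBR3, with levels of 2.80, 3.11, 4.36 and 1.36 in dogs 1 to 4, CCN2, with 4.66, 3.46, 3.95 and 6.16, and the target TGFBI, with 2.39, 1.19, 1.67 and 3.24. TGFBR3 was highest in dog 3 and lowest in dog 4, and the targets CCN2 and TGFBI were highest in dog 4. The ligands, named after their values were seen, differed in pattern. TGFB3 stood at 1.90, 2.99, 3.30 and 1.64, highest in dog 3 and lowest in dog 4. TGFB1, at 2.33, 2.20, 1.74 and 2.37, and TGFB2, at 3.90, 3.16, 2.94 and 4.34, were highest in dog 4 and lowest in dog 3.

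**Figure D4:**
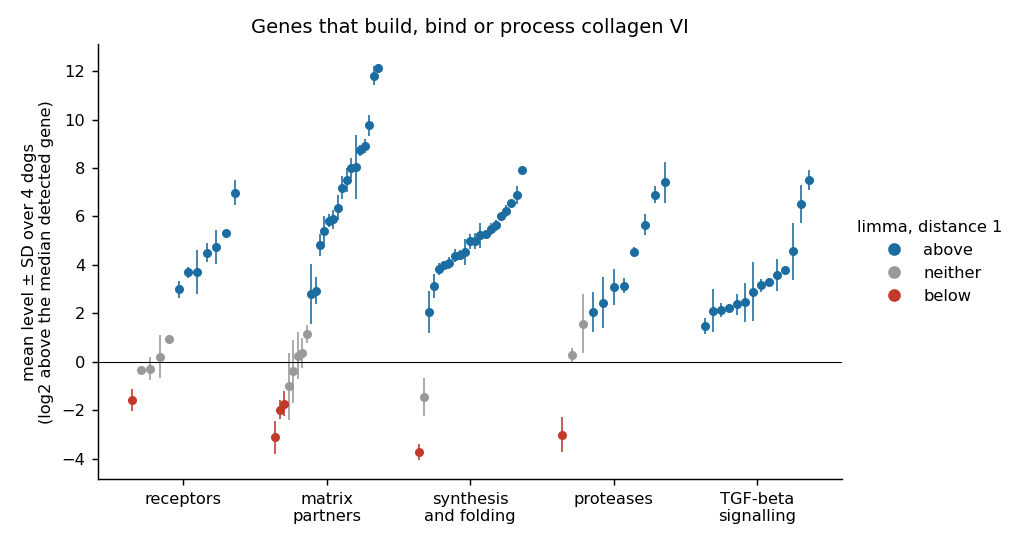
Mean level with SD over the 4 dogs (y axis, log2 above the median detected gene) of each measured gene that binds, builds or processes collagen VI or signals upstream of matrix genes, 1 point per gene, ordered within its list and coloured by the limma call at a distance of 1. Above the median were 7 of 12 receptors, 16 of 24 matrix partners, 19 of 21 synthesis genes, 8 of 11 protease genes and 14 of 14 signalling genes.

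Marker genes were set against the label of the cultures. Of 14 MSC markers 13 were above and 1, NT5E, was below. The summed normalized reads of that list were 2198314, 2044181, 2029960 and 1551542 in dogs 1 to 4, lowest in dog 4. COL3A1, COL1A1 and COL1A2 made up 1944582, 1832541, 1816851 and 1350601 of these sums, so the sums mostly follow 3 collagen genes. Of the 14 markers, 5 were highest in dog 1, 1 in dog 2, 4 in dog 3 and 4 in dog 4. Those of dog 4 were ENG, ITGB1, LUM and DCN. PDGFRA, at 5.19, 4.68, 5.27 and 3.89, and PDGFRB, at 5.68, 5.38, 5.88 and 5.17, had the dog order of COL6A3. These 2 genes are 14.3% of the 14 markers, against 6.73% of genes with a mean of at least 100 normalized reads. Their ranges were much smaller than the 6.27 log2 units of COL6A3.

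Markers of other cell types, apart from the smooth muscle and pericyte list above, were mostly not detected or below the median detected gene. Most genes were one or the other too. Of all 30951 genes, only 17200 were detected, and 6163 of those were below by the level test. Whether such cells were present, and their part in the values of COL6A3, was not tested. Of 14 blood cell markers 10 were not detected, among them PTPRC and CD34. The sums of the 14 lay between 5831 and 7430 normalized reads, mostly of CD79A (5.31 ± 0.17). CSF1R was neither above nor below, at 0.09 ± 0.78. The sums of 10 endothelial markers lay between 169 and 409 normalized reads, with PECAM1, TIE1 and EMCN at 0 reads. Of the others 4 were below. VWF (-0.39 ± 1.29), KDR (-0.86 ± 0.11) and ERG (-1.20 ± 0.55) were neither above nor below. The 6 measured epithelial and mesothelial markers summed to 25.9, 23.1, 36.3 and 943 in dogs 1 to 4, the last from KRT18 (-1.22 ± 2.58, not past the test, but below without dog 4 at -2.49), with CDH1 at 0. The 8 measured adipocyte markers summed to between 845 and 1059, with CIDEC at 0. Of them 1 was above, PNPLA2 (1.60 ± 0.43, but 0.77 and no call against genes with reads in all 4 dogs). PPARG (0.81 ± 0.69), LIPE (-0.31 ± 0.44) and PLIN4 (-1.33 ± 0.51) were neither above nor below, and 3 were below. Of the 10 Schwann and neural markers PMP22 was above (3.10 ± 0.21), 5 were below, and their sums were 1253, 1363, 1804 and 1314. The 8 measured chondrocyte markers summed to 2164, 3598, 1708 and 4585, with COL11A1 above (4.08 ± 0.67) and 6 below, of which 4 were below without dog 1 and 5 without dog 3.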

How the data were processed

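Total RNA libraries of 4 primary canine adipose MSC lines (stranded kit, ribosomal depletion, 10 ng input, per the labels' protocols) formed 1 group. The submitters' processing notes name CanFam3.1 as build and, in no stated order, STAR 2.7.11a, DESeq2, Trimmomatic 0.39 and FastQC 0.12.1. No source used here gives the counter, strand setting or annotation, so overlapping and antisense genes may share reads. The deposited log2 values were made by the authors with a variance-stabilizing transformation, per the file headers. Columns were matched by dog number, and 0 were left unused.

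The inverse of the transformation, (y - c) squared over y with y the antilog of a value and c that of the lowest value, gave whole reads for 100% of values within 0.01 reads. The level test (limma 3.58.1 in R 4.3.3, intercept only, trended prior, distance 1, Benjamini-Hochberg over 17200 detected genes) was checked on simulated data, and its fit covered the collagen VI chains too, but no call was read for them. Intervals are exact Poisson or binomial (scipy 1.17.1). The members and lists were chosen with earlier results of these data known. Named genes were all chains, up to 4 detected members of highest mean level and 3 of largest SD per list (of marker lists, those bearing on the text), 10 genes most like COL6A3, 5 most like its reverse, and up to 3 protein-coding neighbours on each side. Other genes, chosen after their values were seen, are named where they make up a small count or have a known role with collagen VI. Of the genes these rules give, some are not reported here. For a symbol with several rows the most abundant row was used. Alternatives covered the reference, scale, normalization, low-value filter, distance, each dog left out and, chosen after seeing the data, thinning.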

Additional observations from a re-analysis of the deposited data

Results flagged for a closer look

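For 8 of 144 genes examined, 1 library lay far from the other 3. The gap to the nearest, divided by the whole range, was over Dixon's 95% limit for 4 samples. Chance flags about 1 in 20 groups, so about as many genes would be flagged by chance alone. No collagen VI chain was among the 8, since COL6A3 is spread over both sides. Dog 4 was the library in 7 cases: COL14A1, a fibril-associated collagen, with a level of 0.93 against 3.36 to 3.43 in the others, COL1A1 (11.21 against about 12.00), COL1A2 (10.96 against 11.48 to 11.53), VIM (8.48 against 9.48 to 9.59) and PPARG (-0.24 against 1.12 to 1.17) were low there. KRT18 (2.60 against -2.83 to -1.94) and CD68 (-2.09, from 9 reads, against -3.12 to -2.96) were high there. The chaperone gene PDIA3 was high in dog 1, at 5.98 against 5.52 in the other 3. Whether any of these values has a cause beyond chance was not tested.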

How the results depend on the processing

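COL6A3 kept an SD of at least 1.82 and COL6A1 one of at most 0.19 under every alternative run. Set against genes with reads in all 4 dogs, every mean level fell by 0.82, which put COL6A1, COL6A3, COL6A5 and COL6A6 at 8.04, 2.86, -4.13 and -3.31. As log2(normalized reads + 1) the levels of COL6A1, COL6A5 and COL6A6 were 9.05, -5.45 and -3.82 and the SDs of COL6A5 and COL6A6 1.22 and 2.10. That scale also flattens differences at low reads, but less than the deposited values do. Thinned to the shallowest library, COL6A1 and COL6A5 stood at 8.69 and -2.58. Without single dogs the SD of COL6A1 ran from 0.0696 to 0.19 and that of COL6A5 from 0.23 to 0.57, between 1 and 8 of the 10 genes most like COL6A3 were found again, and 0 to 14 genes passed a background test of variance between dogs (F test on limma variances, Benjamini-Hochberg adjusted), the most without dog 4. With all dogs 0 of 17196 genes other than the chains passed. An unadjusted p under 0.05 was found for 894 (5.20%). The test takes its expected variance from these same genes, so a share near this threshold is largely built in. Neither count measures how far the dogs differ as a whole. The test was not read for the chains. Genes above the median numbered 3729 with the reference of genes with reads in all 4 dogs, against 5723. Genes below numbered 2082 with a mean of at least 10 normalized reads and 19520 with no filter, where fewer or more low genes are tested, against 6163. Of 128 genes with a level call, 11 changed it without some dog, and none turned its direction. With the reference of genes with reads in all 4 dogs LSS, P4HA3, PCSK5, PNPLA2, SMAD3, TGFBI and TIMP3 were no longer above, and ERBB3, ERG, KDR, P3H2 and PLIN4 were below. With no filter 7 calls were lost, those of COL1A1, COL1A2 and COL3A1 among them, and the cause was not tested. No paired analysis was possible because there is a single group. Depth limits COL6A5 and COL6A6, at 9 and 49 reads in all 4 libraries.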
